A study of Mus musculus with 34 samples.

Results

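The genes described here carry zinc and manganese across membranes or hold zinc inside brain cells: 3 metallothioneins (Mt1, Mt2 and Mt3), 3 exporters of the Slc30 family (Slc30a1, Slc30a3 and Slc30a10) and 4 importers of the Slc39 family (Slc39a8, Slc39a10, Slc39a12 and Slc39a14). They were chosen by symbol, and all 10 were found among the 23951 genes listed in every deposited file. RNA-seq values were examined in the hippocampus of 4 control mice (Hdac1f/f), 5 Hdac1 cKO mice (Hdac1f/f, Nestin-Cre), 6 5XFAD mice (Hdac1f/f, 5XFAD) and 5 compound mice (Hdac1f/f, Nestin-Cre, 5XFAD), and in GFAP+ nuclei sorted from the cortex of 3 control (Hdac1f/f) and 4 Hdac1 cKO (Hdac1f/f, Nestin-Cre) mice. Every group therefore carried the floxed Hdac1 allele. Nestin-Cre, which acts in neural progenitors, deletes it in neurons and astrocytes but spares microglia. 5XFAD mice carry transgenes driven by the neuronal Thy1 promoter and accumulate amyloid. The labels give an age of 13 to 14 months for the control and Hdac1 cKO hippocampi and 13 months for the other groups, and the study's methods describe male mice. The control and Hdac1 cKO hippocampi were labelled in 1 form and the 5XFAD and compound hippocampi in another, so a difference between separately prepared sets of libraries and an effect of the 5XFAD transgenes cannot be told apart. Compound against 5XFAD mice and Hdac1 cKO against control mice are comparisons within 1 form of label.

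Metallothioneins are small cysteine-rich proteins that bind zinc and copper through thiolate clusters. Mt1 and Mt2 are expressed mainly by astrocytes in the brain and are induced by zinc, glucocorticoids, inflammation and oxidants, in part through the zinc-sensing transcription factor MTF-1, which binds metal response elements. Mt3 is the brain-enriched form. Slc30 proteins (ZnT) lower cytosolic zinc by export from the cell or loading into vesicles, whereas Slc39 proteins (ZIP) raise it by import. Slc30a3 (ZnT3) fills the synaptic vesicles of glutamatergic neurons, above all hippocampal mossy fibres, with zinc. Slc30a10 exports manganese, and Slc39a8 and Slc39a14 import manganese as well as zinc.

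The metallothionein genes lie side by side on chromosome 8, on the forward strand, at chr8:96676507-96678048 (Mt3), chr8:96696518-96697467 (Mt2) and chr8:96702989-96704225 (Mt1) in the mm9 build used for the files. Their coding sequences are shown because they define what is counted as Mt1, Mt2 and Mt3. They come from the protein-coding transcripts of the GENCODE vM1 annotation of that build, with cysteine codons in capitals.
Mt1: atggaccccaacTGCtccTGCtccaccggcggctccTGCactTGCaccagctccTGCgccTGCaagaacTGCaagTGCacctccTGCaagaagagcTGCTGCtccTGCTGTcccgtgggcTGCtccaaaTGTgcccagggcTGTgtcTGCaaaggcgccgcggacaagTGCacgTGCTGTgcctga
Mt2: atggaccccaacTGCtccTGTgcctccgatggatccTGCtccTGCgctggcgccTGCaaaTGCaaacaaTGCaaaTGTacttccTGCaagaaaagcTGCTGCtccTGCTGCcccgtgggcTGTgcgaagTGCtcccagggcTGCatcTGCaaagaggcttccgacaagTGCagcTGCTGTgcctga
Mt3: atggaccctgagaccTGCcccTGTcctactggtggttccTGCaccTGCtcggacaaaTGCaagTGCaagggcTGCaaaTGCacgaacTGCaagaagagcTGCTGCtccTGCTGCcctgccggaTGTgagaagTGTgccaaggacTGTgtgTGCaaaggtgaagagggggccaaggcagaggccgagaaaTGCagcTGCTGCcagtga

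Mt1 and Mt2 each encode 61 residues, of which 20 (32.8%) are cysteine, and Mt3 encodes 68 residues with 20 cysteines (29.4%). Aligned over their coding bases, Mt1 and Mt2 were 79.6% identical, Mt2 and Mt3 67.6% and Mt1 and Mt3 65.2%. The longest run of bases shared by the Mt1 and Mt2 transcripts was 20, and only 12 within the last 200 bases, the end that a 3′ library reads. For Mt1 and Mt3 these runs were 27 and 10 bases, and for Mt2 and Mt3 20 and 11 bases. How reads matching more than 1 gene were shared out is not given in the sources used here.

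The promoters of Mt1 and Mt2 are shown because these were the members called in at least 1 comparison. Both windows run from 250 bases before to 50 bases after the start of the gene in RefSeq (GRCm38.p6, forward strand), chr8:94178839-94179138 for Mt1 and chr8:94172368-94172667 for Mt2. Capitals mark the core of the metal response element, TGCACNC or TGCGCNC, found on either strand.
Mt1: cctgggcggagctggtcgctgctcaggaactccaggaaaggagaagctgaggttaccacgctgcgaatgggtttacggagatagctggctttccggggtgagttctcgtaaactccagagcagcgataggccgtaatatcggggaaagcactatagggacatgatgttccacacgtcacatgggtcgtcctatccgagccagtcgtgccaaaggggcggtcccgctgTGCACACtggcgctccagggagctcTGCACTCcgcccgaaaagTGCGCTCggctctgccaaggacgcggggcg
Mt2: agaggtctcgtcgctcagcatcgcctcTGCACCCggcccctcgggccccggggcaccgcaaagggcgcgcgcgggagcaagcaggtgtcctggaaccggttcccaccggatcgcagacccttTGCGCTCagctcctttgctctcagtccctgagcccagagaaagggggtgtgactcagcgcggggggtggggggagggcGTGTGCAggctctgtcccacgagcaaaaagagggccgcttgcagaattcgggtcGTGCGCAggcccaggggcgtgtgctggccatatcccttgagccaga

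The Mt1 window held 3 cores, all on the forward strand, beginning at -23, 3 and 21 relative to the start, where the start itself is 1. The Mt2 window held 4 cores, at -223 and -128 on the forward strand and at -50 and 5 on the reverse strand. At least 1 such core was present in 25.7% of the 32851 mouse promoter windows of this length, 3 or more in 1.97% and 4 or more in 0.517%. The GC box core GGGCGG, on either strand, occurred 3 times in the Mt1 window, once sharing a base with a metal core, and 0 times in the Mt2 window, against 35.7% of all windows with at least 1. The antioxidant response element core TGACNNNGC, on either strand, occurred 0 times for Mt1 and once for Mt2, against 12.4% of all windows. A window was given for 9 of the 10 genes, with 3 metal cores for Slc30a10, 2 of which overlap, 2 for Slc30a1 and 1 for Mt3. Slc30a3 and Slc39a8 have a pair of windows each, of which 1 held a core, and Slc39a10 and Slc39a12 held none. These matches describe letters in the windows and not occupied sites.

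Levels are given as FPKM (fragments scaled to transcript length and to library size), as deposited. The hippocampal libraries read the 3′ ends of transcripts, yet FPKM still divides by transcript length, so the order of genes by level is only approximate and short transcripts such as the metallothioneins are raised. The values of 7 of the 10 genes (all but Mt1, Mt2 and Slc39a10) were whole multiples of a smallest step in each hippocampal library, within 0.08 of a step. If 1 step is 1 fragment, Slc39a8 rested on 2 to 17 fragments per library. The other 6 were at 28 steps or more, though for Slc39a14, where nearly all libraries were at multiples of 3 steps, a step may be less than 1 fragment. By the size of these steps across low genes, relative depth ran from 0.754 to 2.35 among hippocampal libraries, with medians of 1.26 in control, 1.79 in Hdac1 cKO, 1.67 in 5XFAD and 1.03 in compound mice. It ran from 0.869 to 1.26 among the GFAP+ libraries, each set relative to its control 1.

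Hdac1 itself was at 5.91 to 10.7 FPKM in control and 6.10 to 9.64 FPKM in 5XFAD hippocampi, against 2.36 to 3.03 FPKM in Hdac1 cKO and 1.15 to 2.52 FPKM in compound mice. Thy1, whose promoter drives the 5XFAD transgenes, was at 1563 to 2357 FPKM in mice with the transgenes and at 303 to 388 FPKM in mice without them. In the GFAP+ nuclei, Hdac1 was at 14.5, 9.91 and 22.3 FPKM in control and 5.80 to 11.5 FPKM in Hdac1 cKO mice, and these ranges overlapped. It was lower in Hdac1 cKO nuclei by its mean (8.95 against 15.5 FPKM) and was called lower by the rule given below. Its limma adjusted p was not under 0.05. The 8 astrocyte markers summed to 3262 to 3895 FPKM in these nuclei against 469 to 739 FPKM in hippocampus, and the 7 neuron markers to 177 to 254 against 1355 to 1696 FPKM. Hippocampal libraries also differed in choroid plexus RNA: the 10 markers of that tissue summed to 601 FPKM in control 1 but reached 20601 FPKM in another control, and spanned 62.2 to 14127 FPKM over the other hippocampal groups.

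Mt1 was the most abundant of the 10 genes and was highest in compound mice. Its level was 6828, 7131, 5357 and 5808 FPKM in control mice and 6164, 7551, 6233, 7402 and 5517 FPKM in Hdac1 cKO mice. In 5XFAD mice it ran from 5157 through a median of 7102 to 8477 FPKM, and in compound mice it was 9412, 10619, 8179.7, 10907 and 8653 FPKM. Every compound mouse lay above every control and every Hdac1 cKO mouse, and 4 of the 5 lay above all 5XFAD mice. The other 3 groups overlapped throughout.

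Genes were tested with limma on log2(FPKM + 1), among genes averaging 0.5 FPKM or more in the mice compared. A gene was called when its difference reached 1.5-fold on this scale and its unadjusted p was under 0.05. The study's methods state these thresholds. The p adjusted over all genes tested is given beside it. Mt1 rose in compound mice (9554 ± 1192 FPKM, SD, n = 5) against control mice (6281 ± 837 FPKM, SD, n = 4), with a log2 difference of 0.61 (SE 0.11, limma adjusted p = 0.0277). Against Hdac1 cKO mice (6573 ± 872 FPKM, SD, n = 5) the difference was 0.54 (SE 0.10, limma adjusted p = 0.0142), which passed the adjusted test but stayed under 1.5-fold. Against 5XFAD mice (6830.4 ± 1237 FPKM, SD, n = 6) it was 0.50 (SE 0.13, unadjusted p = 0.0015, adjusted p = 0.613 by limma), and it was not called. Mt1 differed by 0.07 (SE 0.11) between Hdac1 cKO and control mice and by 0.11 (SE 0.14) between 5XFAD and control mice, neither called. The former had no stable sign: it ran from -0.0080 to 0.13 with a mouse left out, and its lowest value over the other alternatives was -0.20. The latter was 0.04 without 5XFAD 3 or without control 3, 0.17 without control 2 and 0.19 without 5XFAD 2. In order of group means, control, Hdac1 cKO and 5XFAD mice did not differ from their neighbours beyond their spread.

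Mt1 stood close to the 1.5-fold threshold in compound against control mice. Leaving out control 3, control 4, compound 2 or compound 4 brought the log2 difference to between 0.53 and 0.57, just short of it, with unadjusted p from 0.00034 to 0.000744 and adjusted p from 0.0622 to 0.114 (limma). With the choroid plexus markers as a covariate it was 0.55 (limma adjusted p = 0.318), and Mt1 was then not called. This covariate, the mean log2(FPKM + 1) of the 10 markers, itself differed between groups. It ran from 2.37 to 5.85 in control, 1.26 to 2.90 in Hdac1 cKO, 1.22 to 4.57 in 5XFAD and 1.22 to 4.93 in compound mice. In every fit with this covariate, choroid plexus RNA and genotype therefore cannot be fully told apart.

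Mt2 followed the same order of groups at a lower level. It was at 912, 870.5, 708 and 808 FPKM in control mice and at 894, 1218, 1043, 989 and 862 FPKM in Hdac1 cKO mice. In 5XFAD mice it ran from 855 through a median of 1167 to 1338 FPKM, and in compound mice it was 1463, 1653, 1090.4, 2037 and 1489.8 FPKM. All compound mice exceeded all control mice, whereas compound 3 fell within the ranges of the Hdac1 cKO and 5XFAD mice.

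Mt2 rose in compound against control mice by 0.88 on the log2 scale (SE 0.15, limma adjusted p = 0.0324), the group means being 1547 ± 343 FPKM (SD, n = 5) and 824 ± 88.9 FPKM (SD, n = 4). It was also called against Hdac1 cKO mice (1001 ± 141 FPKM, SD, n = 5), with a difference of 0.61 (SE 0.15, unadjusted p = 0.0012, limma adjusted p = 0.071). Leaving out Hdac1 cKO 1, Hdac1 cKO 5, compound 2 or compound 4 took that difference to between 0.50 and 0.58, under 1.5-fold. Against 5XFAD mice (1117 ± 176 FPKM, SD, n = 6) it differed by 0.46 (SE 0.15, unadjusted p = 0.0082, limma adjusted p = 0.718), and was not called. 5XFAD mice stood above control mice by 0.43 (SE 0.13, unadjusted p = 0.0046, limma adjusted p = 0.211) and Hdac1 cKO mice by 0.28 (SE 0.11, unadjusted p = 0.0245, adjusted p = 0.333 by limma), both with overlapping groups and neither called. With the choroid plexus markers as a covariate the difference of Hdac1 cKO mice was 0.01 (unadjusted p = 0.955, limma adjusted p = 0.991). Those markers were themselves lower in Hdac1 cKO mice, so that fit cannot fully tell them apart from genotype. In compound against control mice Mt2 stayed called with that covariate, but its limma adjusted p was 0.332.

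**Figure D1:**
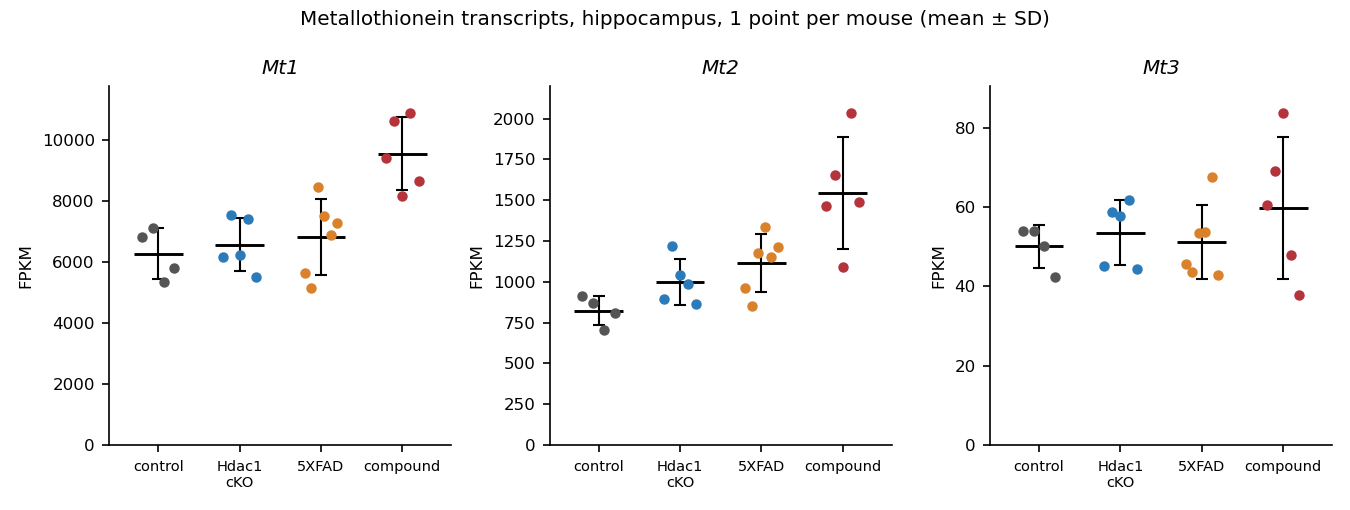
FPKM (vertical axis, linear from 0) of Mt1, Mt2 and Mt3 in the hippocampus of control, Hdac1 cKO, 5XFAD and compound mice, 1 point per mouse, with bars for mean ± SD. Compound mice lie above all control mice for Mt1 (8179.7 to 10907 against 5357 to 7131 FPKM) and Mt2 (1090.4 to 2037 against 708 to 912 FPKM), whereas the groups overlap for Mt3.

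Mt3 did not follow them. It was at 54.0, 53.9, 50.2 and 42.4 FPKM in control mice and from 37.7 to 83.8 FPKM over all 20 hippocampi. The 4 groups overlapped, and compound mice, at 59.8 ± 18.0 FPKM (SD, n = 5), showed the widest spread of the 4. The difference between compound and control mice was 0.20 with a 95% interval from -0.23 to 0.64 (limma adjusted p = 0.772), so a change of the size seen for Mt1 was not excluded by these mice. The difference ran from 0.07 without compound 3 to 0.35 without compound 5, and was 0.13 without control 4.

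Of the 10 genes, 2 were called in compound against control mice, Mt1 and Mt2, both higher, where 4.24% of all 14348 genes tested were called and 2.22% were called higher. Both also had an adjusted p under 0.05 by limma, against 0.662% of all genes, and both did not overlap between the groups, against 4.27%. With the choroid plexus markers as a covariate neither adjusted p was under 0.05 (0.318 for Mt1 and 0.332 for Mt2 by limma). The median log2 difference of the 10 genes was 0.18. In compound against Hdac1 cKO mice 1 of 10 was called, Mt2, against 3.55% of all genes, while 1 of 10, Mt1, had an adjusted p under 0.05 by limma, against 1.49%, and was the 1 gene of the 10 without overlap, against 3.34%. In Hdac1 cKO against control mice 0 of 10 were called, against 3.36% of all genes; 2 of 10, Mt2 and Slc30a3, had an unadjusted p under 0.05 by limma, against 11.7% of all genes. In 5XFAD against control mice 0 of the 9 tested were called, against 2.95%, and the same pair had an unadjusted p under 0.05 by limma, against 10.7%. In compound against 5XFAD mice 0 of 9 were called, against 1.28%, and 2 of 9, Mt1 and Mt2, had an unadjusted p under 0.05 by limma, against 6.61%. In 5XFAD against Hdac1 cKO mice, a comparison added after the values were seen, 0 of 9 were called, against 3.1%, and 0 of 9 had an unadjusted p under 0.05 by limma, against 10.8%. Slc39a8 was the gene left untested, being under the filter on low values wherever 5XFAD mice entered. Comparisons that have a group in common share its mice and are not independent of each other.

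**Figure D2:**
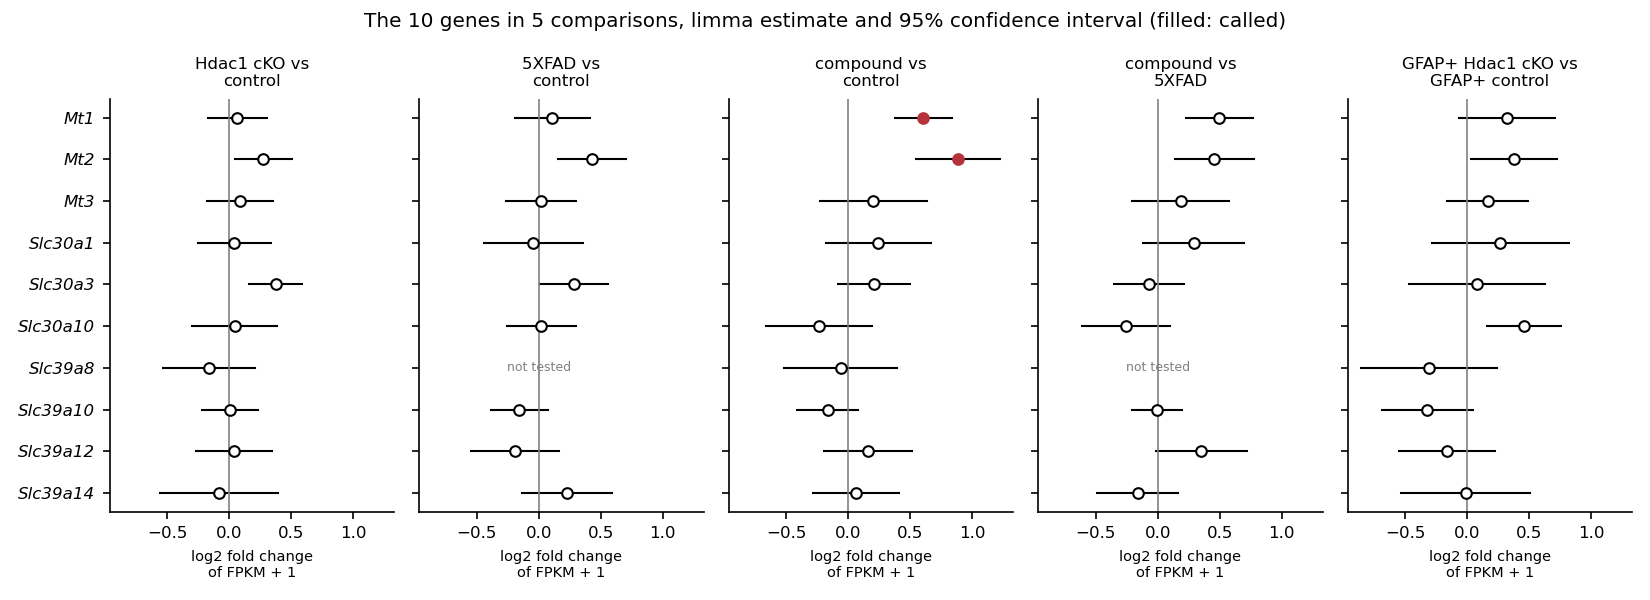
Log2 difference of FPKM + 1 (horizontal axis) for the 10 genes in 5 comparisons (Hdac1 cKO, 5XFAD and compound each against control, compound against 5XFAD, and GFAP+ Hdac1 cKO against GFAP+ control), with points for the limma estimate and lines for its 95% confidence interval. Filled points mark called genes, which in the comparisons plotted are Mt1 (0.61) and Mt2 (0.88) in compound against control mice. The comparison of compound with Hdac1 cKO mice, where Mt2 was called as well, is not plotted.

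Some glial markers were higher in compound than in control mice, as Mt1 and Mt2 were, but the other comparisons differed. In hippocampal tissue a larger number of cells of a type and more RNA per cell cannot be told apart. In compound against control mice 5 of the 7 microglial markers were called, all higher, and their sum ran from 290.1 to 541 FPKM against 142 to 176 FPKM in control mice. Of the 8 astrocyte markers 2 were called, Gfap (2.10 higher on the log2 scale, limma adjusted p = 0.00022) and the water channel gene Aqp4 (1.23 higher, limma adjusted p = 0.0032), and the sum ran from 624.8 to 739 against 469 to 529.6 FPKM. In 5XFAD against control mice, where neither Mt1 nor Mt2 was called, 5 of 7 microglial markers and Gfap (1.90 higher, limma adjusted p = 1.9e-06) were called as well. Gfap was 1 of 8 astrocyte markers called there, with 5 higher and 3 (Gja1, Slc1a3 and Fgfr3) lower by their estimate. In compound against 5XFAD mice 0 of 7 microglial markers were called, but all 7 were higher by their estimate (median 0.29) and 3 had an unadjusted p under 0.05 by limma, with overlapping groups. Of the 8 astrocyte markers 1, Aqp4, was called in that comparison (0.91 higher, unadjusted p = 0.00013, limma adjusted p = 0.234). By their estimate 7 of the 8 were higher and 1 lower, and 2 had an unadjusted p under 0.05 by limma. No astrocyte or microglial marker was at 0 throughout a group. The part of cell composition in the levels of Mt1 and Mt2 was not tested.

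Mt1 and Mt2 also rose and fell together among mice of the same group. With the group means removed, Pearson's r of log2(FPKM + 1) over the 20 hippocampi was 0.83 (permutation p = 4e-05, 0.00012 adjusted over the 3 metallothionein pairs) and Spearman's rho was 0.85 (permutation p = 5e-05, adjusted 0.00015). Without 5XFAD 2 and 5XFAD 3, the mice farthest from the median for Mt1, r was 0.84 over 18 mice. For Mt3 the values over the 20 hippocampi were lower, with r = 0.29 to Mt1 (rho = 0.34, permutation p = 0.227 and 0.165, adjusted 0.34 and 0.247) and r = -0.02 to Mt2 (rho = 0.15, permutation p = 0.951 and 0.579, adjusted 0.951 and 0.579). Without the 2 mice farthest from the median, these values of r were 0.24 and 0.23. Within groups, both relations of Mt3 were positive in 3 of the 4 groups and negative in compound mice, in groups of 4 to 6 mice. No test was run within a group.

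**Figure D3:**
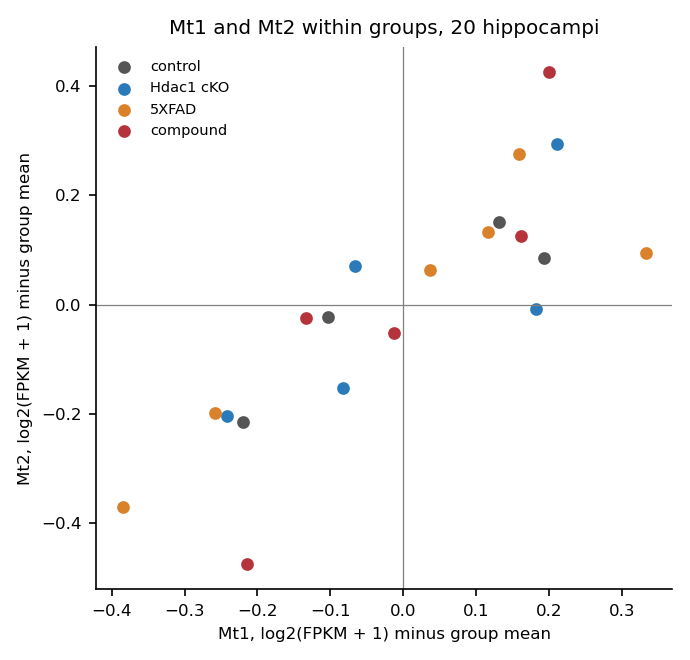
Deviation of each of the 20 hippocampi from its group mean in log2(FPKM + 1), Mt1 on the horizontal and Mt2 on the vertical axis, coloured by group. The points rise together with r = 0.83.

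Within-group variation was compared over the same 20 mice among 8265 genes averaging 5 FPKM or more in hippocampus. The genes most like Mt1 were Myeov2 (r = 0.88), Slirp (r = 0.85), which encodes a mitochondrial RNA-binding protein, and Gm16702 (r = 0.85). All 3 were closer to Mt1 than Mt2 was (r = 0.83), so the likeness is not particular to the pair. The genes most like Mt2 were Mt1 (r = 0.83), Tyrobp (r = 0.80) and the ribosomal protein gene Rps18 (r = 0.80). Tyrobp is the signalling adaptor of microglial receptors such as TREM2. Group means of Tyrobp were 139 FPKM in control, 156 in Hdac1 cKO, 546 in 5XFAD and 850.2 in compound mice. Group means of Myeov2 were 2837, 2814, 2687 and 3096 FPKM in the same order, so this gene shared the variation among mice without a similar spread of group means. These likenesses describe 20 libraries of unequal depth and carry no test.

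The transporters were expressed at far lower FPKM than Mt1 and Mt2, and none was called in any hippocampal comparison. Slc30a3, the vesicular transporter of zincergic neurons, was at 29.7, 31.5, 23.9 and 28.3 FPKM in control mice and at 35.6, 40.2, 39.2, 34.0 and 35.8 FPKM in Hdac1 cKO mice. All Hdac1 cKO mice were above all control mice, where 4.23% of all genes tested did not overlap in either direction. The log2 difference was 0.37 (SE 0.10, unadjusted p = 0.0025, limma adjusted p = 0.169), a 1.30-fold ratio of means that did not reach 1.5-fold. With the choroid plexus markers as a covariate it was 0.27 (unadjusted p = 0.162 by limma).

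In mice with the transgenes, Slc30a3 ran from 26.8 through a median of 34.9 to 43.2 FPKM without and was 26.7, 40.9, 29.9, 31.7 and 36.6 FPKM with loss of Hdac1. Both of these groups reached down into the control range. The difference from control was 0.28 in 5XFAD mice (SE 0.13, unadjusted p = 0.0449, adjusted p = 0.452 by limma) and 0.21 in compound mice (SE 0.13, limma adjusted p = 0.619). The latter was 0.13 without control 3 or without compound 2, and 0.0089 with the choroid plexus markers as a covariate. Of the neuron markers 0 of 7 were called in Hdac1 cKO against control mice, but 3 of 7, all higher, had an unadjusted p under 0.05 by limma, and Rbfox3, at 164 to 178 against 139 to 156 FPKM, did not overlap (log2 difference 0.20, unadjusted p = 0.0121 by limma). The other two were Slc17a7 (0.25 higher) and Camk2a (0.21 higher), both with overlap. In all 4 of the 7 were higher and 3 lower by their estimate, among them the interneuron genes Gad2 (-0.25, unadjusted p = 0.0526 by limma) and Gad1 (-0.06). Of the 3 dentate granule cell markers 0 were called in Hdac1 cKO against control mice. C1ql2 was higher (0.31, unadjusted p = 0.0461 by limma) and 2 were lower by their estimate. In compound against control mice 1 of the 3, Dsp, was called lower, with 1 higher and 2 lower by their estimate. The part of these markers' differences in the Slc30a3 values was not tested.

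Slc30a1, the plasma membrane zinc exporter and itself a target of MTF-1, was at 2.77 to 7.77 FPKM across the hippocampi. Control mice averaged 4.80 ± 1.05 FPKM (SD, n = 4) and compound mice 5.93 ± 1.55 FPKM (SD, n = 5), with overlapping values and a log2 difference of 0.24 (SE 0.19, limma adjusted p = 0.719). That difference was 0.15 without compound 5 and 0.37 without compound 3, and with the choroid plexus markers as a covariate it was 3.2e-05. Its exons overlap those of 1700034H15Rik on the opposite strand, and since the use of strand in counting is not given in the sources used here, reads of the pair cannot be told apart. Slc30a10, the manganese exporter, was at 2.22 to 2.54 FPKM in control and 1.04 to 2.75 FPKM in compound mice, with compound 5 lowest. The log2 difference was -0.24 (SE 0.20, limma adjusted p = 0.732), and -0.11 without that mouse. Slc30a10 overlaps Gm2061 on the opposite strand in the same way.

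Slc39a10 was the highest of the 4 importers in hippocampus. It was at 24.1, 20.1, 17.8 and 20.3 FPKM in control mice, 19.0 to 22.7 in Hdac1 cKO, 16.4 to 19.9 in 5XFAD and 16.6 to 20.6 FPKM in compound mice. Compound and 5XFAD mice averaged 18.2 ± 1.63 (SD, n = 5) and 18.3 ± 1.44 FPKM (SD, n = 6) against 20.6 ± 2.63 FPKM (SD, n = 4) in control mice, with overlapping groups and limma adjusted p of 0.657 and 0.633.

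Slc39a12, a zinc importer prominent in astrocytes, was at 6.62 to 8.96 FPKM in control, 6.02 to 9.17 in Hdac1 cKO and 4.81 to 8.75 FPKM in 5XFAD mice. In compound mice it was 12.6, 7.44, 8.07, 7.53 and 8.09 FPKM, and compound 1 stood apart. That library also held the most Ttr, a choroid plexus transcript, of the compound mice (13910.0 FPKM against 58.9 to 265 FPKM); the part of this in the Slc39a12 value was not tested. The log2 difference from 5XFAD mice was 0.35 (SE 0.17, unadjusted p = 0.0593, limma adjusted p = 0.741). It was 0.22 without compound 1 (unadjusted p = 0.185 by limma) and 0.54 with the choroid plexus markers as a covariate (unadjusted p = 0.0023, limma adjusted p = 0.518).

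Slc39a14, an importer of zinc, manganese and iron that inflammation induces in liver, was at 0.957 to 3.26 FPKM and overlapped in all groups, with its widest spread in Hdac1 cKO mice (0.957, 3.18, 2.08, 1.19 and 1.36 FPKM). Compound and control mice averaged 1.94 ± 0.251 (SD, n = 5) and 1.82 ± 0.310 FPKM (SD, n = 4). Slc39a8, which shares its substrates, was the lowest gene, at 0.179 to 1.12 FPKM. The 95% interval of its log2 difference between compound and control mice ran from -0.52 to 0.40, on a scale that draws low genes toward 0. Only a large difference between groups would therefore be detectable. The part of a low number of fragments in this was not tested.

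**Figure D4:**
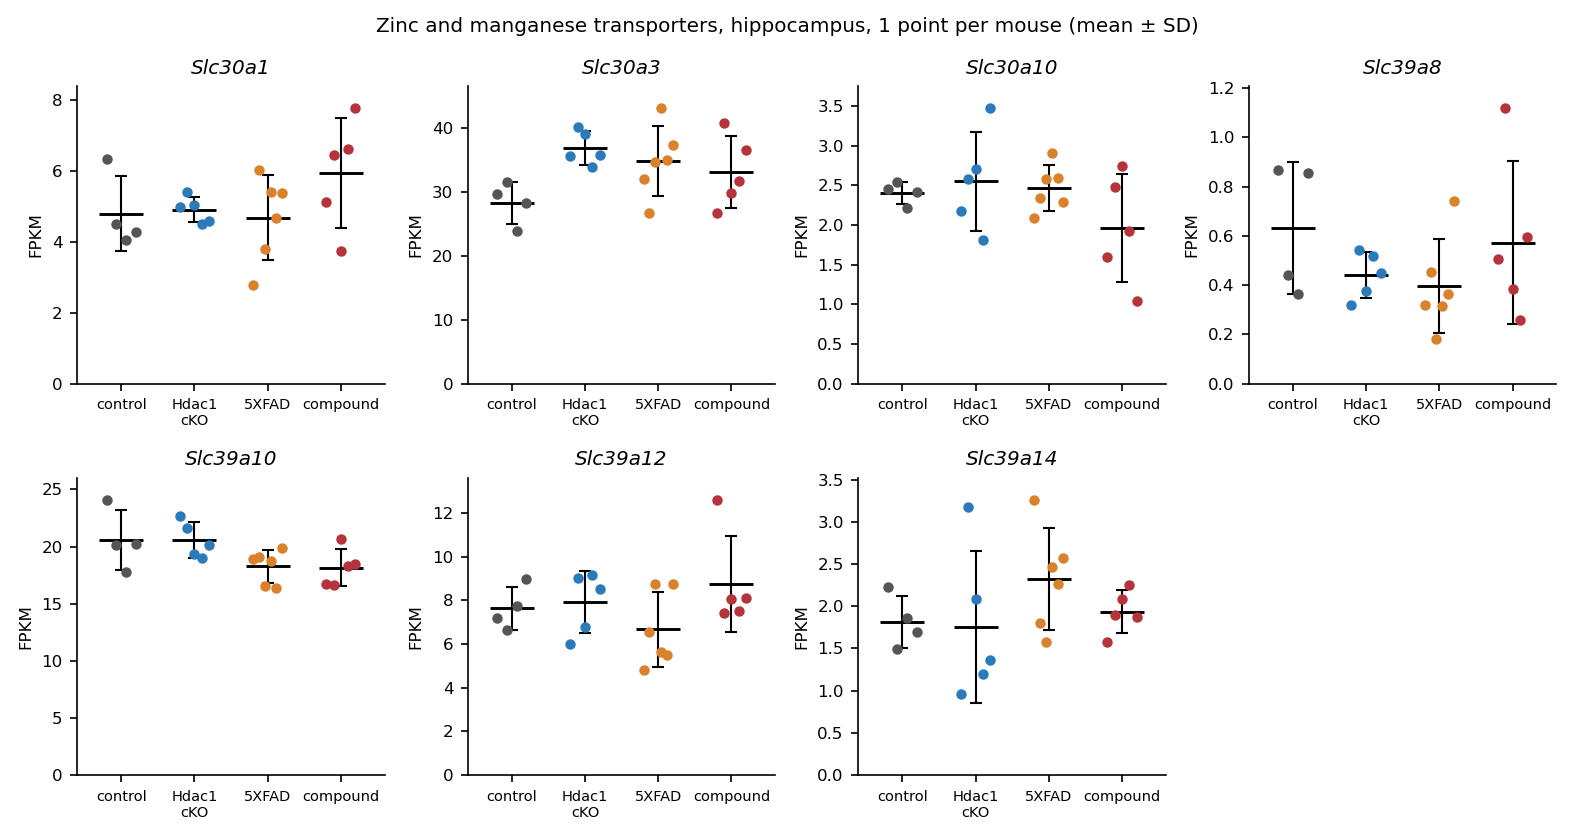
FPKM (vertical axes, linear from 0) of the 7 transporters in the hippocampus by group, 1 point per mouse, with bars for mean ± SD. Slc30a3 separates Hdac1 cKO (34.0 to 40.2 FPKM) from control mice (23.9 to 31.5 FPKM), and the other genes overlap between these groups.

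The interaction of Hdac1 loss and the 5XFAD transgenes, fitted over all 20 hippocampi, asks whether the difference made by Hdac1 loss was itself different in mice with the transgenes. In this fit 0 of the 9 genes tested were called, against 4.07% of all genes. Mt1 had an interaction of 0.43 (SE 0.18, unadjusted p = 0.0268, adjusted p = 0.505 by limma), its difference for Hdac1 loss being 0.50 with the transgenes and 0.07 without. Slc30a3 had one of -0.45 (SE 0.17, unadjusted p = 0.0167, adjusted p = 0.464 by limma), with differences of -0.07 and 0.37. For Mt2 it was 0.18 (SE 0.20, limma adjusted p = 0.805), with differences of 0.46 and 0.28, and the interaction was 0.07 without compound 4 and 0.30 without compound 3. Over all genes, 8.97% had an unadjusted p under 0.05 in this fit and 0 of 14389 had an adjusted p under 0.05 by limma.

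In the GFAP+ nuclei the same genes stood in another order. These libraries were made by SMART-Seq v4 from nuclear RNA of the cortex, so their levels are given beside the hippocampal ones without a test. Slc30a10 was at 35.8 to 59.5 FPKM in the nuclei and 1.04 to 3.47 FPKM in hippocampus, Slc39a12 at 61.2 to 94.0 against 4.81 to 12.6 FPKM and Slc39a14 at 8.27 to 16.5 against 0.957 to 3.26 FPKM. Mt3 was at 462 to 652 against 37.7 to 83.8 FPKM, whereas the neuronal Slc30a3 was at 2.65 to 5.56 against 23.9 to 43.2 FPKM. Mt1, at 963 to 1660 FPKM, remained the highest of the 10 genes.

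Slc30a10 showed the clearest separation between Hdac1 cKO and control nuclei. It was at 39.9, 35.8 and 39.7 FPKM in control mice and 59.5, 48.6, 50.8 and 54.2 FPKM in Hdac1 cKO mice, and the groups did not overlap. The log2 difference was 0.46 (SE 0.14, unadjusted p = 0.0068, limma adjusted p = 0.984), short of 1.5-fold.

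Mt1 and Mt2 were higher in the Hdac1 cKO nuclei by their means, and neither was called. Mt2 was at 428, 391 and 346 FPKM in control and 549.5, 454, 573 and 446 FPKM in Hdac1 cKO mice, without overlap, a log2 difference of 0.38 (SE 0.16, unadjusted p = 0.036, limma adjusted p = 0.984). Mt1 was at 1305, 1298 and 963 FPKM against 1527, 1288, 1660 and 1436 FPKM, where Hdac1 cKO 2 lay within the control range, a difference of 0.32 (SE 0.17, limma adjusted p = 0.984) that was 0.18 without control 4, the lowest. Mt3 averaged 519.7 ± 53.6 (SD, n = 3) and 581 ± 48.3 FPKM (SD, n = 4), with overlap.

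Slc39a10 went the other way, at 10.6, 9.18 and 8.36 FPKM in control and 7.15, 7.54, 7.20 and 7.18 FPKM in Hdac1 cKO nuclei. No Hdac1 cKO mouse reached the lowest control mouse, and the log2 difference was -0.32 (SE 0.17, unadjusted p = 0.0782, limma adjusted p = 0.984). The remaining 5 genes overlapped between the groups. In all, 0 of the 10 genes were called against 2.58% of all 15070 genes tested, 2 of 10 had an unadjusted p under 0.05 by limma against 4.7%, and 3 of 10 did not overlap against 5.72%. Over all genes 2 reached an adjusted p under 0.05 by limma. Of the astrocyte markers 0 of 8 were called, 7 of 8 were higher by their estimate, 2 (Aqp4 and Aldh1l1) had an unadjusted p under 0.05 by limma and 1 (Slc1a3, at 867 to 923 against 800.1 to 848 FPKM) did not overlap, with sums of 3262 to 3507 FPKM in control and 3493 to 3895 FPKM in Hdac1 cKO nuclei. The choroid plexus markers Ttr (log2 difference 2.89) and Folr1 (1.04) were called higher, 2 of the 8 tested, of which 7 were higher by their estimate and Clic6 lower. Endothelial Cldn5 (-0.68) was called lower, 1 of 6, of which 4 were lower by their estimate and 2 (Cdh5 and Pecam1) higher. Neurod6 (-0.60) was called lower, 1 of the 2 pyramidal-cell markers tested. The part of these in the nuclear levels of Slc30a10, Mt2 and Slc39a10 was not tested.

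**Figure D5:**
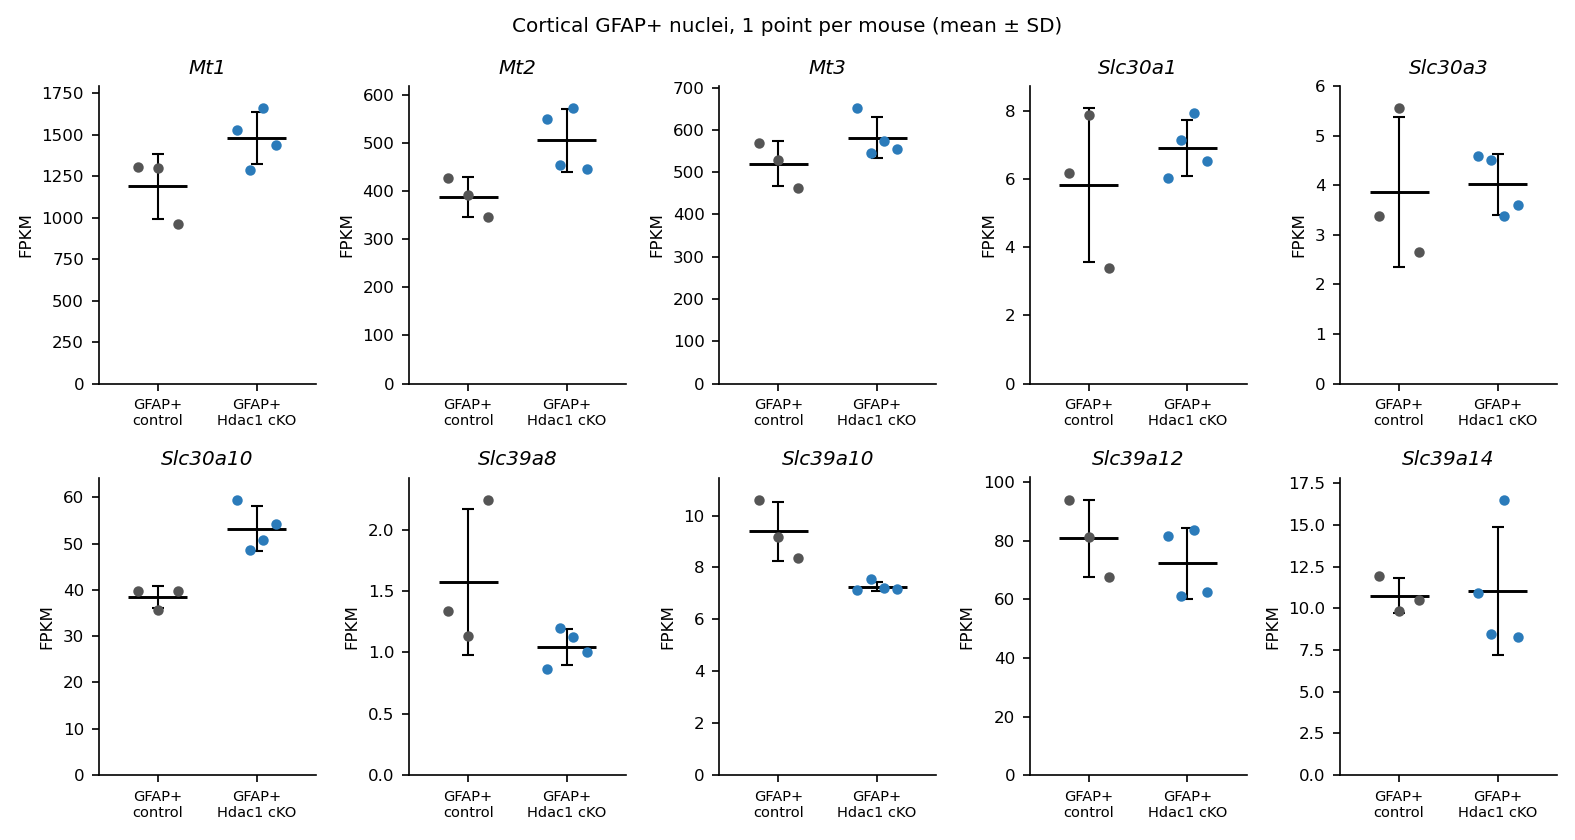
FPKM (vertical axes, linear from 0) of the 10 genes in cortical GFAP+ nuclei of 3 control and 4 Hdac1 cKO mice, 1 point per mouse, with bars for mean ± SD. Mt2 and Slc30a10 lie higher and Slc39a10 lower in every Hdac1 cKO mouse than in any control mouse.

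The wider zinc pathway was described by 20 further genes. Of these (the remaining Slc30 and Slc39 transporters, Mt4, Mtf1 and Tmem163), 16 were tested in Hdac1 cKO against control mice and 16 in compound against control mice, with 0 called higher and 1 called lower in each, beside 3.36% and 4.24% of all genes called. In 5XFAD against control mice 0 of 17 were called, beside 2.95% of all genes, and in the GFAP+ nuclei 0 of 15, beside 2.58%. In compound against 5XFAD mice 1 of 17 was called lower, beside 1.28%, and in 5XFAD against Hdac1 cKO mice 1 of 17 higher, beside 3.1%, while 0 of 15 were called in compound against Hdac1 cKO mice and 0 of 17 for the interaction. Their medians lay between -0.04 and 0.05 on the log2 scale. Slc39a1, a zinc importer of the plasma membrane singled out after its values were seen, was not called but did not overlap in compound (27.1 to 38.5 FPKM) against control mice (23.4 to 25.6 FPKM), with a log2 difference of 0.36 (SE 0.11, unadjusted p = 0.0071, limma adjusted p = 0.232). It was the 1 of the 16 whose groups did not overlap, beside 4.27% of all genes.

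The called gene was Slc39a4, the zinc importer known from intestinal uptake, each time. It was at 0.303, 1.66, 6.31 and 4.34 FPKM in control mice and from 0.0847 to 0.516 FPKM in Hdac1 cKO mice, and control 1 lay within the Hdac1 cKO range. The log2 difference was -1.35 in Hdac1 cKO (SE 0.42, limma adjusted p = 0.239) and -1.24 in compound mice against control (SE 0.44, limma adjusted p = 0.323). It was -0.67 in compound against 5XFAD mice and 0.78 in 5XFAD against Hdac1 cKO mice, and compound 3 is listed at 0. Choroid plexus markers differed too: all 10 were called lower in Hdac1 cKO and 7 of 10 in compound against control mice. In compound against 5XFAD mice 0 of 10 were called, all 10 being lower by their estimate. In 5XFAD against Hdac1 cKO mice 4 of 10 were called higher. Of the 5 ependymal markers, 5 were called lower in Hdac1 cKO, 2 in compound against control and 0 in compound against 5XFAD mice. Slc6a13, 1 of the 4 meningeal markers tested, was called with Slc39a4 each time, in the same direction. Control 1, the low control for Slc39a4, was also the low control for Ttr (576 FPKM against 12903 to 20146 FPKM). In compound 1 Ttr was at 13910 FPKM but Slc39a4 at 0.954 FPKM. The part of these tissues in the Slc39a4 values was not tested.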

How the data were processed

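Gene-level FPKM values were taken as the authors deposited them for 27 mice, 1 library each. For the hippocampus the authors used a 3′ digital gene expression protocol, aligned reads with Tophat2 and obtained FPKM with Cufflinks 2.0.0 on UCSC mm9 genes. For the GFAP+ nuclei, stained and sorted by FACS, the authors used the SMART-Seq v4 kit, and how their reads were aligned and quantified is not given separately in the sources used here. Another 7 samples (6 of ChIP-seq and control 2 of the GFAP+ nuclei) were not analysed here. The files give no fragment counts, so depth is relative, FPKM were not scaled further, and no interval or limit from counts could be computed. Values became log2(FPKM + 1), which understates changes of low genes, and genes averaging 0.5 FPKM or more were tested with limma 3.58.1 (trend and robust moderation, only the groups compared, no covariate) in R 4.3.3, with Benjamini-Hochberg adjustment over all genes tested. The fits were tested on simulated data. A call needed a 1.5-fold difference and an unadjusted p under 0.05. P-values measure the spread between mice of these groups. Named genes were the 10 members in every comparison, called genes of a 20-gene zinc list, and the 3 genes of most similar variation for each member called in hippocampus. Cell type markers and Slc39a1 are named outside this rule. The members and lists were chosen with earlier results of these data known. Correlations used 100000 permutations. No pair of libraries was identical. Alternatives were 0.1 as the pseudocount, a filter at 1 FPKM or none, median-of-ratios scaling, limma with its default moderation, 1 fit over the 4 hippocampal groups, the choroid plexus score as a covariate, a replicate block and each mouse left out. Python 3.11.15, numpy 2.4.6, pandas 2.3.3, scipy 1.17.1, Biopython 1.88 and matplotlib 3.10.9 were used.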

Additional observations from a re-analysis of the deposited data

Results flagged for a closer look

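Among 50 combinations of a gene and a group with 4 to 10 mice, 2 held a mouse far from the others of its group by Dixon's criterion, which chance alone meets in about 1 of 20 groups. Slc39a12 was 12.6 FPKM in compound 1, well above the other compound hippocampi. Slc39a10 was 7.54 FPKM in GFAP+ Hdac1 cKO 2, the highest of a group that otherwise differed by under 0.05 FPKM.

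The interaction of Hdac1 loss and the 5XFAD transgenes had an unadjusted p under 0.05 by limma for 2 of the 9 genes tested, against 8.97% of all genes. For Mt1 the interaction was 0.43 on the log2 scale (unadjusted p = 0.0268, adjusted p = 0.505 by limma), and for Slc30a3 it was -0.45 (unadjusted p = 0.0167, adjusted p = 0.464 by limma). Neither was called or passed the adjustment over all genes, and 0 of 14389 genes passed it.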

How the results depend on the processing

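Of 1387 fits of a member under an alternative, 1375 kept their side of the threshold, 9 fell short of it, 3 came to pass it and 0 called values turned sign; 62 of 1332 fits called neither way had the opposite sign. In compound against control mice the number of members called, 2, was 1 with the choroid plexus score as covariate, and 1 to 2 with each mouse left out. In compound against Hdac1 cKO mice it was 1, and 0 to 2 with each mouse left out: Mt2 was lost without Hdac1 cKO 1 or 5 or compound 2 or 4, and Mt1 was gained without Hdac1 cKO 2 or 4 or compound 3. In the other comparisons it was 0 throughout. Adjusted p of Mt1 in compound against control mice ran from 0.0194 to 0.318 over the alternatives and that of Mt2 from 0.00148 to 0.332 (limma), the highest with the covariate. That score itself differed between the groups. The number of all genes called in Hdac1 cKO against control mice moved from 480 to 850 with that covariate, and with a pseudocount of 0.1 it moved from 425 to 641 for 5XFAD against control, from 184 to 325 for compound against 5XFAD and from 444 to 686 for 5XFAD against Hdac1 cKO mice. With a mouse left out, all genes called ran from 411 to 659 in Hdac1 cKO against control and from 557 to 755 in compound against control mice; the causes were not tested. Replicate numbers did not pair the mice (correlation of deviations from -0.13 to 0.10 over 27 same-numbered pairs in hippocampus and from -0.05 to 0.05 over 3 in the GFAP+ nuclei), and with a replicate block Mt1 differed by 0.64 and Mt2 by 0.89 in compound against control mice, with 593 of all genes called against 608. Among the genes at whole steps in hippocampus, Slc39a8 had the fewest, 2 to 17 per library, so depth may limit it most.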
